A study of Mus musculus with 6 samples.

Results

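Dot1L null and wild-type mouse embryonic fibroblasts were compared after both had been exposed to sodium arsenite, across the 10880 genes whose level reached 1 RPKM in at least 1 of the 2 arsenite libraries, out of 37224 genes in the deposited table. RPKM, reads per kilobase and per unit of sequencing depth, corrects a count for how long a gene is and how deeply its library was sequenced. The difference of a gene is log2 of its RPKM plus 1 in the null library over its RPKM plus 1 in the wild-type library, so that a positive value is a higher level in the null and low levels give muted differences. Higher and lower below mean a difference of at least 1 in size, which is 2-fold on that scale, unless values alone are set side by side.

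The study grew fibroblasts of a C57BL/6 background, described in its labels as primary, diploid and nontumorigenic, and sequenced RNA from 4 groups of 1 library each. They were wild-type cells without arsenite, wild-type cells with arsenite, Dot1L-/- cells without arsenite and Dot1L-/- cells with arsenite. Arsenite was given as sodium arsenite for 24 h at a dose called low, and the protocol lists 5 and 10 µM beside 0 µM without saying which was sequenced. The labels speak of 2 cell lines and do not say how Dot1L was deleted, how many embryos each line came from or which promoter drove a deletion, so genotype and cell line cannot be told apart. With 1 library a group there is no replicate check on any value below, no test was made, and each difference is one between 2 libraries.

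DOT1L is the enzyme that methylates lysine 79 of histone H3, a mark laid down over the bodies of transcribed genes by complexes that also hold AF9, ENL and AF10. It is best known for keeping Hox genes active in leukemias driven by MLL fusions and for a role in the cell cycle and DNA damage signalling. Arsenite binds neighbouring thiol groups of proteins and depletes glutathione. Cells commonly answer it through NRF2, which switches on antioxidant genes, through metallothioneins, which bind metals, through heat shock factors, and through the integrated stress response, in which ATF4 switches on amino acid synthesis and transport.

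Depth, recovered from the whole-read steps of the deposited values, was 10833103 reads in wild type with arsenite and 11879632 in the null with arsenite, and 62972880 and 64699847 in the untreated libraries. Genes above 0 numbered 15700 and 15313 in the arsenite libraries, and the 100 genes with most reads took 34.6% and 41.3% of the reads. Of 11 fibroblast markers, 8 passed the filter, and the summed RPKM of the list was 4990 in wild type and 12118 in the null with arsenite. Such a sum follows its most abundant members. With arsenite 4 of the 8 were higher in the null and none lower, against 1 higher and 3 lower in the untreated libraries. Thy1, Lum and Fap, which often mark fibroblasts, were at 0 in both arsenite libraries. Of the markers of other cells, 3 of 12 macrophage and leukocyte, 3 of 9 neural and glial, 3 of 9 cartilage and bone, 2 of 7 adipocyte and 1 of 9 skeletal muscle genes passed, and none of 8 epithelial, 8 endothelial or 7 pluripotent and germ cell genes did. In such bulk samples a smaller number of cells of a type and less RNA per cell cannot be told apart. Several of these markers differed between the arsenite libraries. Cd14, a receptor of myeloid cells, stood at 11.6 and 1.71, and Sox9, a factor of cartilage progenitors, at 1.61 and 14.1 RPKM. Neither list moved as a whole: in each, 1 of the 3 members past the filter was higher in the null and 1 was lower. The part of these markers in the results below was not tested.

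Dot1l itself checks the labels. It lies on chromosome 10 (80755101-80795461 in GRCm38, gene ID ENSMUSG00000061589), and without arsenite stood at 30.4 RPKM in wild type and 9.59 in the null, against 5.71 and 1.24 with it. Each null library lay below its own wild-type partner, and neither was at 0. Under arsenite the null level was 4.61-fold lower (3.79 to 5.63), where the range is an exact 95% interval of the ratio of reads. Here and below such an interval covers counting error only, and since reads carry no molecular identifiers it may be too narrow even for that. A value per gene does not show which part of the gene was deleted.

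In all, 1102 of the 10880 genes (10.1%) were higher in the null with arsenite, 2130 (19.6%) were lower and 7648 were neither. The median difference was −0.33, and the middle 90% of genes lay between −1.68 and 1.54. The tail of large differences was on the higher side: past 4-fold there were 303 higher and 276 lower genes, and past 16-fold 38 and 9. The counting interval lay beyond equal levels for 1042 of the 1102 higher and 2038 of the 2130 lower genes, and beyond 2-fold for 884 and 1728. Genes with no reads in wild type numbered 136, and those with none in the null 187. At the edge of the filter, 230 genes whose higher RPKM was 1 to 1.1 had a median difference of 0.55 in size, and 249 genes at 0.9 to 1 had 0.52. The split between higher and lower genes changes with the scale of the 2 libraries: centring on the median shifts every gene by 0.33 and gives 1671 higher and 1098 lower genes, scaling to the 75th percentile 1409 and 1606, and removing the trend with gene length 1502 and 1050. Counts after centring or distances from the median of all genes are therefore given for the gene groups below. A group's share of lower genes reads against the 19.6% over all genes, and its share of higher genes against the 10.1%.

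**Figure D1:**
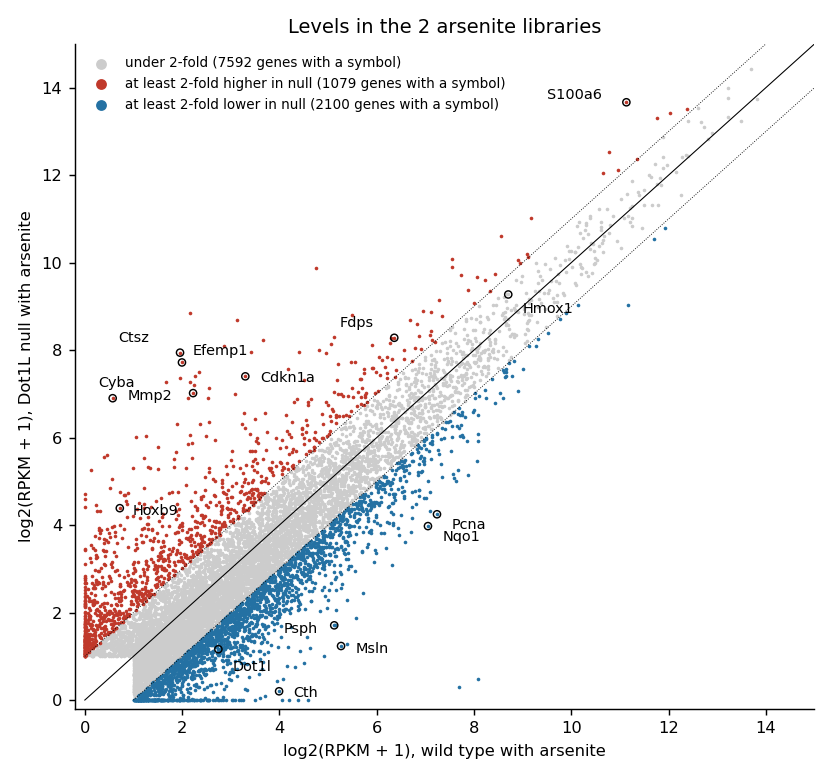
Level of each gene with a symbol in the 2 arsenite libraries, as log2(RPKM + 1), with wild type on the x axis and Dot1L null on the y axis; the solid line marks equal levels, the dotted lines 2-fold, and red and blue points are at least 2-fold higher or lower in the null. Points far from the line are more numerous above it at the largest distances, and Cyba, Ctsz, Efemp1, Cdkn1a and Mmp2 are ringed there.

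Among the highest genes in the null were Cyba, Ctsz, Efemp1, Igfbp2, Inmt, Aebp1, Plp2, Guca1a, Cd34, Plin3, Mgp, Eva1b, Cxcl1 and Ass1, with differences from 4.95 to 6.33. From here on, the 4 RPKM values of a gene are in the order wild-type control, null control, wild type with arsenite, null with arsenite. Summed over all genes, RPKM was 323290, 353283, 622139 and 662061 in that order. These unlike sums were not adjusted for, so arsenite and untreated levels of a gene are not on one scale. Where all 4 libraries are ranked or called close below, the RPKM values alone are set side by side. The genotypes are compared by the difference within each pair. Cyba, which encodes the p22phox subunit of the superoxide-producing NADPH oxidases (chromosome 8, 122424771-122432940), had 0.293, 34.3, 0.487 and 118. It was near 0 in both wild-type libraries and rested there on 4 reads with arsenite, against 1067 in the null. Ctsz, a lysosomal cathepsin, had 0.573, 111, 2.88 and 245, and under arsenite was 85.01-fold higher (63.4 to 117). Efemp1, the matrix protein fibulin 3, had 0.709, 142, 2.99 and 209.6. For Igfbp2, a binding protein of insulin-like growth factors, the values were 0.189, 34.6, 7.697 and 413. In all 3 the null exceeded wild type in both pairs. Guca1a stood apart from that pattern, with 0.0182, 0.9405, 0.318 and 45.8: its difference was 5.15 with arsenite and 0.93 without. Of the genes just listed, Guca1a was the single one whose untreated difference was below 1.

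Among the lowest genes, Rps3a3 had the largest difference (−7.60), but it is a near-identical copy of a ribosomal protein gene whose reads the counting could split, so its value is uncertain, as is that of the prolactin family member Prl2c3 (−3.56). The others were R3hdml, C1ql1, Anxa8, mt-Tq, Msln, S100a7a, Cth, Ckb, Ccl20, Casp1, Colec12, Lce1f and Mcpt8, from −4.59 to −3.51. Of these mt-Tq, a mitochondrial tRNA, rested on 12 reads in wild type with arsenite and 0 in the null, and its untreated difference was 0.81. Msln encodes mesothelin, a surface protein of mesothelial cells, and had 77.3, 0.9797, 37.5 and 1.35; with arsenite it was 27.7-fold lower (19.7 to 40.3). Anxa8, an annexin, had 97.8, 5.99, 41.05 and 1.43. Ckb, the brain form of creatine kinase, had 16.4, 0.669, 46.3 and 2.68. These 3 were high in both wild-type libraries and low in both null libraries. Casp1, the protease that matures interleukin 1 beta, had 7.31, 0.03097, 15.7 and 0.394, the same split. R3hdml and C1ql1 had no reads in the null with arsenite, against 273 and 318 in wild type. Set against a floor of 3 reads in the null, R3hdml was 99.8-fold lower and C1ql1 116-fold. Their counting intervals began at 80.6-fold and 94.0-fold. Cth, the enzyme that makes cysteine from cystathionine, differed from them, with 44.2, 54.5, 14.9 and 0.149: it was highest in the 2 untreated libraries, and the null with arsenite held 4 reads against 366 in wild type.

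The most abundant RNAs were alike in kind. Lgals1 (galectin 1), Rplp1, Rps24, Rps26 and Rps15 led wild type with arsenite, and Rplp1, Rps12, Rps26, Lgals1 and S100a6 led the null. Lgals1 stood at 14542 and 13612 RPKM in the 2 libraries, a difference of −0.10. S100a6, a small calcium-binding protein, stood at 2246 and 13008 (2.53).

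The untreated wild-type and null libraries form a pair of their own that shares no library with the arsenite pair, though it shares the 2 cell lines, so it is no replicate. In that pair, of 11793 genes past the same filter, 6.89% were higher and 15.7% lower in the null. Over the 10085 genes past both filters, 368 were higher in both pairs, which is 45.3% of the 812 that were higher with arsenite and 57.2% of the 643 that were higher without. Lower in both were 720, or 36.3% of 1985 and 47.7% of 1511. Opposite ways were rare: 26 genes were higher with arsenite and lower without, and 25 the reverse. A further 418 higher and 1240 lower genes were past 2-fold with arsenite and past it in neither direction without. Across these genes Pearson's r between the 2 differences was 0.56 and Spearman's rho 0.43, given as a description, since genes of the same libraries are not independent. The largest shared differences were those of Ctsz, Efemp1, Plp2, Cd34 and Plin3 on the higher side, and of Rps3a3, Msln, Anxa8, Colec12 and C1ql1 on the lower.

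**Figure D2:**
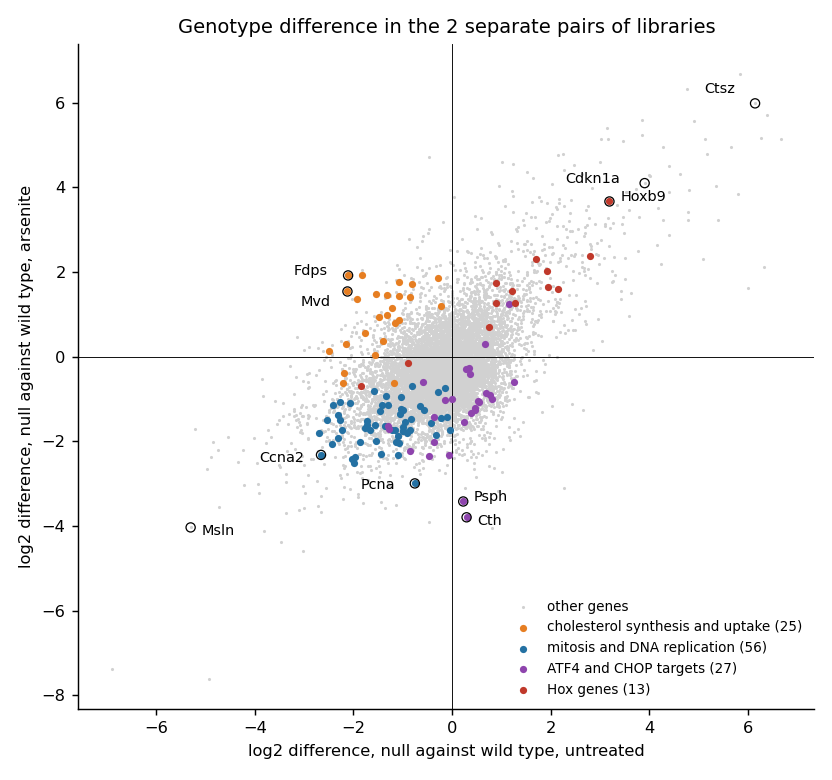
Difference between Dot1L null and wild type for each gene past the filter in both pairs, untreated on the x axis and with arsenite on the y axis, in log2 units; coloured points are members of 5 gene lists. Hox genes lie mostly at the upper right and mitosis and DNA replication genes at the lower left, while most cholesterol genes lie at the upper left, and 25 of the 27 ATF4 and CHOP targets lie below 0 on the y axis.

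Genes that were alike in the untreated cells (within 0.2 on the log2 scale) and reached 20 RPKM show differences seen with arsenite alone. On the higher side they were led by Tmem86a, Lcn2, Saa3, Mgst3 and Ier2. Lcn2, the iron-scavenging protein lipocalin 2, had 34.1, 29.8, 33.7 and 316, a difference of −0.19 without arsenite and 3.19 with it. Saa3, an acute phase serum amyloid, had 94.7, 92.3, 185 and 1076. Tmem86a, which encodes a lysoplasmalogenase, had 4.85, 5.01, 2.68 and 49.6 and was 18.5-fold higher (14.01 to 24.96). On the lower side stood H2afz, Casc4, Asns, Pgrmc1 and Stoml2. H2afz, the histone variant H2A.Z, had 204, 210.0, 189 and 35.1, a difference of 0.04 without arsenite and −2.39 with it. Pgrmc1, a heme-binding membrane protein, had 61.1, 66.6, 73.3 and 15.7 and was 4.66-fold lower (4.14 to 5.25).

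The cell cycle set the 2 genotypes apart in one direction. Of 26 mitosis genes, all past the filter, 24 were lower and none higher in the null with arsenite, with a median of −1.70, which is 1.37 below the median of all genes. Of 30 DNA replication genes 26 were lower and none higher (median −1.58, 1.25 below that of all genes). After centring 21 and 19 were lower, and with the length trend removed 20 and 19. In the untreated pair 24 of the same mitosis genes and 14 of the replication genes were lower, with medians of −1.74 and −0.99.

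Ccna2, the cyclin of S phase and mitosis, had RPKM values of 72.8, 10.7, 69.8 and 13.2, so the 2 wild-type libraries were close to each other and several times above both null libraries. Top2a, the topoisomerase that untangles chromosomes, had 62.7, 14.6, 43.6 and 7.36, and the checkpoint kinase gene Bub1 19.1, 4.05, 9.07 and 0.773. In Bub1 the null with arsenite was the lowest of the 4. Pcna, the sliding clamp of DNA polymerases (chromosome 2, 132249286-132253180), had 115, 67.5, 150.2 and 17.99. Here the split was much wider with arsenite than without, at differences of −2.99 and −0.76, and the arsenite level was 8.35-fold lower (7.61 to 9.17). The helicase subunit Mcm3 had 94.6, 43.8, 51.2 and 9.51 and Rrm1 of ribonucleotide reductase 78.1, 26.1, 77.7 and 18.7. In both genes the null was below wild type in each pair. Smallest within these lists were the differences of Rfc4 (−0.68) and Mcm7 (−0.73). Of 28 DNA repair genes 26 passed, and 10 were lower with none higher (median −0.86, 0.53 below that of all genes; 4 lower after centring), among them Nbn of the break-sensing complex (8.42 and 1.73 RPKM in wild type and null with arsenite) and Brca1 (2.84 and 0.367), which acts in repair by recombination.

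Cdkn1a, which encodes the cyclin-dependent kinase inhibitor p21 and is a classic p53 target (chromosome 17, 29090979-29100722), had RPKM values of 8.56, 143, 8.84 and 168. It was low in both wild-type libraries and high in both null libraries, and with arsenite the null was 18.99-fold higher (16.5 to 21.9). No other inhibitor of the list, nor the p53 gene, was higher. Cdkn2a, the locus of p16 and p19ARF, stood at 118, 40.1, 222 and 194 (−0.20 with arsenite), Cdkn1b (p27) at 11.3 and 6.05 with arsenite and Trp53 itself at 45.98 and 24.6. Over the 15 of 16 members of that list past the filter, 3 were higher and 5 lower, and after centring 3 and 1. Beside Cdkn1a the D cyclins Ccnd1 (109 and 264 with arsenite) and Ccnd2 (21.2 and 71.8) were higher. The E cyclins Ccne1 (11.7 and 4.301) and Ccne2 (2.38 and 0.0723), Cdkn2c, Cdkn2d and the Rb relative Rbl1 were lower.

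Among 24 p53 targets 21 passed the filter, of which 10 were higher and 2 lower (median 0.97, 1.30 above that of all genes). Ccng1, a cyclin induced by p53, had 12.6, 153, 8.75 and 73.3. Phlda3, a repressor of AKT, had 20.6, 116, 30.02 and 242, and Mdm2, the ubiquitin ligase that degrades p53, 15.1, 72.9, 4.24 and 23.96. All 3 were higher in the null in both pairs. Bax, a pore-forming inducer of apoptosis, had 93.5, 256, 300.0 and 772. Fas, a death receptor, ran differently: at 15.8, 7.604, 4.97 and 21.9 it was lower in the null without arsenite and higher with it. Ddb2 (10.1 and 1.82 with arsenite) and Gadd45a (41.5 and 20.1) were the lower members. In the untreated pair the same members gave 10 higher and 2 lower, with a median of 0.77.

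Since Cdkn1a carries the largest difference of the list, its promoter is shown where the core of a p53 site occurs. A p53 site is a pair of short repeats, each around a core such as CATG, and the cores lie 6 bases apart where the repeats touch. A search for CATG, 6 bases of any kind and CATG on both strands of RefSeq promoters (250 bases before to 50 after the start, GRCm38.p6) found it in 1 of the 16 list members with a promoter and in 0.833% of the 27025 genes in that table. This search was added after values had been seen. The match lies 48 bases before the Cdkn1a start at chr17:29090919-29090956 on the plus strand, with the match in capitals:
Cdkn1a: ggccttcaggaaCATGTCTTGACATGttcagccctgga
The letters describe the sequence and do not show that p53 binds there. The distance is from the RefSeq start at 29090979, and whether the match is one of the known p53 sites of Cdkn1a was not examined.

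**Figure D3:**
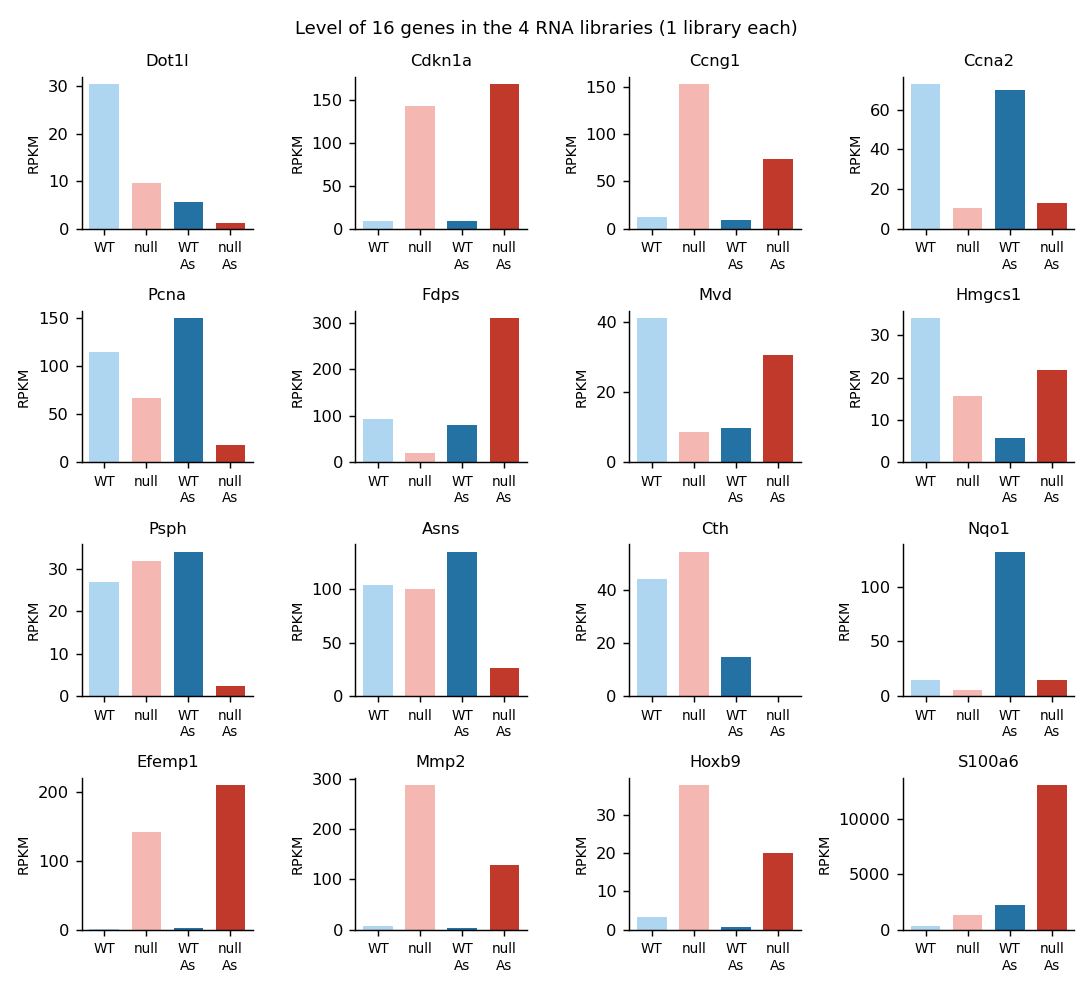
RPKM of 16 genes in the 4 libraries (1 bar per library, y axis from 0, As for arsenite, null for Dot1L null). Cdkn1a, Ccng1, Efemp1, Mmp2 and Hoxb9 are high in both null libraries, Ccna2 in both wild-type libraries, Psph, Asns and Cth are lowest in the null with arsenite, and Fdps is lowest in the null control and highest in the null with arsenite.

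ATF4 and CHOP targets, which carry the integrated stress response, were mostly below wild type in the null with arsenite, and few were past 2-fold in the untreated pair. Of 27 genes, all past the filter, 17 were lower and 1 higher, with a median of −1.07 (0.74 below that of all genes); in the untreated pair 2 were lower and 2 higher, with a median of 0.30. After centring 11 were lower and 1 higher, and with the length trend removed 10 and 1. Cth, described above, and enzymes of serine and asparagine synthesis were among the lowest. Psph, which makes serine from phosphoserine (chromosome 5, 129765558-129787443), had 26.9, 31.7, 33.95 and 2.27. Its difference was 0.23 without arsenite and −3.42 with it, where the null was 14.98-fold lower (12.3 to 18.4) than wild type. Asns, asparagine synthetase, had 104, 99.7, 135 and 26.2, the same shape. Shmt2, the mitochondrial serine hydroxymethyltransferase, had 394, 306, 271 and 66.2, and Psat1, an earlier step of serine synthesis, 155, 182, 186 and 63.7.

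The regulators of the response are on the same list. Atf4 itself stood at 477, 430.0, 421 and 208, Ddit3, which encodes CHOP, at 171, 172, 189 and 94.8, and Trib3, a pseudokinase that restrains both, at 133, 96.2, 34.6 and 5.98. Atf4 and Ddit3 lay close in the other 3 libraries and had differences of −1.01 and −0.99 with arsenite. Nupr1, a stress-induced chromatin protein, had 72.6, 39.5, 161 and 33.4, and Chac1, which degrades glutathione, 129, 52.1, 25.9 and 7.66. Ddit4, an inhibitor of mTORC1, was the single higher member at 37.5, 84.5, 3.999 and 10.9, and Sesn2, another such inhibitor, stood at 11.2 and 13.95 with arsenite.

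ATF4 and its partners bind the amino acid response element, whose core is TTGCATCA. That octamer, searched on both strands of the RefSeq promoters, was present in 6 of the 25 list members that had a promoter (24%) and in 279 of the 27025 genes in the table (1.03%). These 6 are shown because the known element of the list lies near their start. Each window is written along the gene, 5′ to 3′, with the element in capitals; in Pycr1 it is on the opposite strand.
Atf3: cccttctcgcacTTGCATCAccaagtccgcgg
Chac1: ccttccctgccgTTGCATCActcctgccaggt
Slc7a11: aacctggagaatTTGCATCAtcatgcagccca
Nupr1: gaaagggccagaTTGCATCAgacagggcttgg
Pycr1: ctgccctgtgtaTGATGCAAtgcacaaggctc
Vldlr: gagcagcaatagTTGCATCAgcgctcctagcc
In GRCm38.p6 they lie at chr1:191183424-191183455 (Atf3, minus strand), chr2:119351037-119351068 (Chac1, plus), chr3:50443641-50443672 (Slc7a11, minus), chr7:126625561-126625592 (Nupr1, minus), chr11:120643832-120643863 (Pycr1, minus) and chr19:27216808-27216839 (Vldlr, plus). The element starts 110, 193, 47, 110, 103 and 200 bases before the RefSeq start in that order, and Slc7a11 holds a further one at 66 bases on the other strand. The differences of these genes with arsenite were −0.90 for Atf3, −1.63 for Chac1, −1.41 for Slc7a11, −2.23 for Nupr1, −1.27 for Pycr1 and −0.40 for Vldlr. All 6 were below 0, and 4 of them were past 2-fold. Of all 27 list members 25 were below 0 and 17 were lower, so the 6 were much like the list as a whole. Psph and Asns hold no such octamer in this window, which says only that these letters are not there.

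Genes that supply amino acids and charge them onto tRNAs lay on the same side. All 20 cytosolic aminoacyl-tRNA synthetase genes passed the filter and had differences below 0; 10 were lower and none higher, with a median of −0.96 against 0.30 untreated, and 5 were lower after centring. Dars, for aspartate, had 31.6, 39.5, 21.9 and 3.26, with the null with arsenite 6.73-fold lower (5.42 to 8.43) than wild type. Tars, for threonine, had 201, 116, 116 and 27.02, and Hars, for histidine, 59.7, 46.4, 60.6 and 16.1. In Dars and Hars the untreated libraries were closer to each other than the arsenite libraries. Aars (−0.16) and Qars (−0.12) differed least. Of 16 amino acid transporter genes 14 passed, and 7 were lower and none higher, or 4 and none after centring. Slc38a1, a glutamine carrier, had 38.6, 11.7, 11.2 and 0.923 and the cystine carrier Slc7a11 14.02, 10.7, 2.38 and 0.269. For Slc38a1 the null was lower in both pairs.

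NRF2 targets split rather than moving together. Of 32 genes 29 passed the filter, 5 were higher and 9 lower, with a median of −0.44 (0.11 below that of all genes), against a median of 0.46 in the untreated pair; after centring 6 were higher and 4 lower. Nqo1, the quinone reductase and a standard NRF2 readout, had 14.4, 5.54, 132 and 14.7. Wild type with arsenite stood far above the other 3 libraries, and the null with arsenite was 8.95-fold lower (7.88 to 10.2). Gclm, a subunit of the enzyme that starts glutathione synthesis, had 12.4, 9.46, 9.94 and 1.17, Gsr, which reduces oxidised glutathione, 10.9, 14.9, 21.6 and 6.17, and Txnrd1, thioredoxin reductase 1, 79.1, 138, 45.03 and 17.8. In these 3 the null with arsenite was the lowest of the 4 libraries. Prdx1, a peroxiredoxin, had 75.6, 74.4, 401 and 189.9, close in the untreated pair.

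The higher members were Ephx1, Ces2g, Gstm2, Osgin1 and Akr1b8. Ephx1, the microsomal epoxide hydrolase, had 13.8, 126, 32.2 and 283, higher in the null with and without arsenite. Gstm2, a glutathione transferase, had 8.93, 11.9, 52.2 and 189 and Osgin1, an oxidative stress-induced regulator, 5.74, 14.1, 3.97 and 15.7. Hmox1, which encodes heme oxygenase 1, had 82.4, 405, 416 and 618. Its null level was above wild type in both pairs, but the difference was 0.57 with arsenite and 2.28 without. The antioxidant element TGACNNNGC occurred in 7 of the 24 list members with a promoter (29.2%), in 13.99% of all genes in the table and in 32% of the ATF4 and CHOP list, and it can overlap the amino acid response element by sharing its first letters.

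Glutathione S-transferases, which couple glutathione to reactive compounds, were higher in 7 and lower in 2 of 18 genes past the filter (23 listed; median 0.68, 1.01 above that of all genes). The lower ones were Gsta1 and Gsto1, and after centring 9 were higher and none lower. Gstt1 had 0.644, 6.99, 2.72 and 77.8, Mgst3 11.02, 11.9, 35.8 and 206 and Gstk1 0, 1.35, 0.0993 and 10.7. Gstt1 and Gstk1 were higher in the null in both pairs and Mgst3 with arsenite alone. Gsto1, which reduces arsenic species as well, went the other way at 109, 230.5, 207 and 101: higher in the null without arsenite and lower with it. In the list for arsenic methylation, reduction and efflux, 9 of 15 genes passed and 3 were lower, namely Gsto1, the efflux pump gene Abcc4 (2.59 and 0.544 with arsenite) and Ahcy (93.99 and 42.6), which recycles the product of methyl transfer. After centring none of the 9 was lower and 1 was higher. The main metallothionein genes lay within 2-fold of each other between the genotypes. Mt1 stood at 203, 258, 1259.7 and 1924 (0.61) and Mt2 at 324, 127, 1599 and 1220.4 (−0.39), so that both arsenite libraries were several times above both untreated ones. That rise in RPKM was not particular to metallothioneins: the ribosomal protein gene Rps24 stood at 1013, 1113, 11523 and 9703. Mt3, a form best known from brain, was past 2-fold at 0.343 and 2.503, on 2 and 16 reads, and with a minimum of 20 reads no member was higher or lower.

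Heat shock genes were lower in 8 and higher in 2 of 21 cases (median −0.81, 0.48 below that of all genes), and lower in 5 after centring. Hspa4l had 33.7, 3.91, 7.31 and 0.557, lower in the null in both pairs. Hspd1, the mitochondrial chaperone HSP60, had 355, 429.9, 214 and 65.6, and Dnaja1, a cochaperone of HSP70, 18.2, 12.9, 39.8 and 11.2. The higher members were Bag3 at 0.0981, 18.99, 0.249 and 13.2 and the small heat shock protein gene Cryab at 25.7, 75.7, 122 and 477. Bag3, a cochaperone of selective autophagy, was near 0 in wild type whether or not arsenite was present. Genes of the endoplasmic reticulum had a median of −0.12, which lay above 0 after centring, with Calr higher and Dnajb9, Atf6 and Herpud1 lower of 23 (2 higher and 1 lower after centring).

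Cholesterol synthesis and uptake genes changed direction between the pairs. Of 26 genes 25 passed the filter; 13 were higher and none lower in the null with arsenite (median 1.14, 1.47 above that of all genes), whereas in the untreated pair 21 of the same 25 were lower and none higher (median −1.39). The difference between these differences was not tested. Under each of the 11 other settings tried, between 10 and 17 genes were higher with arsenite and none was lower.

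Fdps, which makes farnesyl diphosphate (chromosome 3, 89093588-89101967), had RPKM values of 93.9, 20.99, 81.2 and 310.4. The null was the lowest of the 4 libraries without arsenite and the highest with it, and with arsenite it was 3.82-fold higher (3.58 to 4.09). Mvd, the mevalonate decarboxylase, had 41.1, 8.66, 9.802 and 30.4. Here the wild-type control was the highest library, and the null with arsenite was above the null control. Hmgcs1, HMG-CoA synthase, had 34.1, 15.7, 5.77 and 21.9, also highest in the wild-type control and lowest in wild type with arsenite. Among the regulators, Srebf2, the master transcription factor, stood at 10.03 and 15.2 with arsenite (0.56), its escort Scap at 3.62 and 9.56 (1.19) and its inhibitor Insig1 at 6.71 and 19.5 (1.41). Ebp (−0.62), Sc5d (−0.61) and Dhcr7 (−0.39) were the 3 members below 0. Of 16 fatty acid synthesis genes 15 passed, and 2 were higher, Elovl6 (2.25 and 7.53) and Scd1 (5.08 and 11.3), and Elovl5 (8.099 and 3.49) was lower; after centring 4 were higher and none lower.

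Hmgcs1 is a classic target of SREBP, the factor that Srebf2 encodes, and its sterol element is shown. The motif TCACNCCAC was found in 1 of the 18 cholesterol genes with a promoter (5.56%) and in 1.44% of all genes in the table, on either strand. It starts 137 bases before the RefSeq start, in the window chr13:119690202-119690234 on the plus strand of GRCm38.p6:
Hmgcs1: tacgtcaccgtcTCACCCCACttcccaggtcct
Other cholesterol genes have known sterol elements with other letters, so this share says nothing about how many are bound.

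Matrix glycoproteins were past 2-fold more often on the higher side. Of 38 matrix glycoprotein and proteoglycan genes 31 passed, with 17 higher and 3 lower (median 1.09, 1.42 above that of all genes), and between 11 and 23 were higher under the other settings. After Efemp1 came Fbln2, another fibulin, at 1.71, 149.9, 0.848 and 25.6, and Loxl1, a crosslinker of elastin, at 19.6, 80.4, 8.68 and 93.3. Both were higher in the null in both pairs. Ogn, a small proteoglycan, had 3.01, 35.03, 1.31 and 21.3, and Thbs2, thrombospondin 2, 27.4, 26.8, 1.64 and 11.4. For Thbs2 the untreated libraries were alike and wild type with arsenite was far below the null. The lower members were Spp1, which encodes osteopontin, at 1058, 67.001, 193 and 32.8, the collagen crosslinker Loxl2 at 23.8, 5.56, 16.95 and 5.397 and Thbs1 at 458, 119, 10.7 and 4.49.

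Collagens divided by chain. Of 23 genes 18 passed, 5 were higher and 2 lower (median 0.20, 0.53 above that of all genes), while in the untreated pair 11 of the 18 were lower and 3 higher. Col1a1, of the main fibrillar collagen, had 335, 133, 63.9 and 72.2, so that the arsenite libraries were close. Its partner chain Col1a2 had 64.2, 206, 9.58 and 50.9 and was higher in the null in both pairs. Col6a1 had 61.2, 43.4, 10.2 and 84.4 and Col6a2 14.8, 10.4, 2.29 and 25.6; both collagen VI chains were close in the untreated pair and several times higher in the null with arsenite. Col18a1, a basement membrane collagen, was the highest at 2.09, 58.7, 0.999 and 17.6. Col27a1 and the basement membrane chain Col4a1 were lower, the latter at 134, 20.9, 24.99 and 8.17.

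Matrix proteases and their inhibitors ran both ways, with 7 higher and 4 lower of 22 (25 listed), or 10 and 4 after centring. The lower ones were Serpinf1, Mmp3, Mmp13 and Plaur. Mmp2, a gelatinase of fibroblasts, had 6.97, 287, 3.68 and 129, and with arsenite the null was 34.96-fold higher (29.2 to 42.2). Serpine2, an inhibitor of thrombin, had 0.236, 29.7, 0.434 and 27.6. The stromelysin Mmp3 had 58.4, 0.602, 34.4 and 9.88 and Serpinf1, which encodes PEDF, 60.6, 19.1, 89.3 and 17.7, both lower in the null in both pairs. Among smooth muscle genes Myl9, Tagln, Actg2, Tpm2 and Flna were higher of 21 and Myh9 was lower; after centring 9 were higher. Tagln (transgelin) had 2.804, 20.03, 9.72 and 248 and Myl9, a myosin light chain, 1.02, 15.3, 4.85 and 139.8. Acta2, the smooth muscle actin of activated fibroblasts, had 721, 80.5, 956 and 1328: low in the null control alone, with the arsenite libraries at a difference of 0.47. YAP and TAZ targets had 7 lower and none higher of 22 (median −0.80, 0.47 below that of all genes), against 2 lower and 1 higher after centring, and the lowest was Ccn2, the matricellular protein CTGF, at 180.3, 23.04, 60.4 and 7.91.

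Hox genes, which record position along the body axis, were mostly above wild type in the null in both pairs. Of 42 genes in the table, cofactors included, 16 passed the filter, and 12 were higher and none lower (median 1.63, 1.96 above that of all genes). Untreated, 8 of the 16 were higher and 1 was lower. Most were at low RPKM, and 11 were at 0 in both arsenite libraries. Hoxb9 had 3.23, 37.7, 0.646 and 19.9, Hoxa11 0.00591, 6.04, 0.137 and 4.88 and Hoxa7 1.27, 6.44, 2.79 and 17.8. Hoxa9, best known as a DOT1L-dependent gene in leukemia, had 0.0273, 2.97, 0 and 2.15: it was at or near 0 in both wild-type libraries. The Hox members with the smallest differences were Hoxa4 (0.34) and Hoxa3 (0.70). Of the 16 members 2 lay below 0. With a pseudocount of 5 in place of 1, 2 of the 16 were past 2-fold, as their levels are low. Among the members whose levels are printed, Hoxb9, Hoxa11 and Hoxa9 passed the filter through the null library only. How many of the others did so was not counted. Entry through the null alone by itself raises the count and the median. With no filter 31 genes entered, of which 12 were higher and none lower, and the median was 0.60. Among imprinted growth genes, Igf2, a fetal growth factor, had 1.77, 43.3, 1.34 and 44.99 and H19, its neighbouring noncoding RNA, 0.643, 5.19, 0.311 and 11.001. The growth factor adaptor Grb10 was lower at 18.7, 12.6, 3.86 and 0.2501. Of that list 9 of 19 genes passed; Igf2, H19, Mest, Igf2r and Meg3 were higher and Grb10 was lower, with a median of 1.06 that turned slightly negative with no filter.

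**Figure D4:**
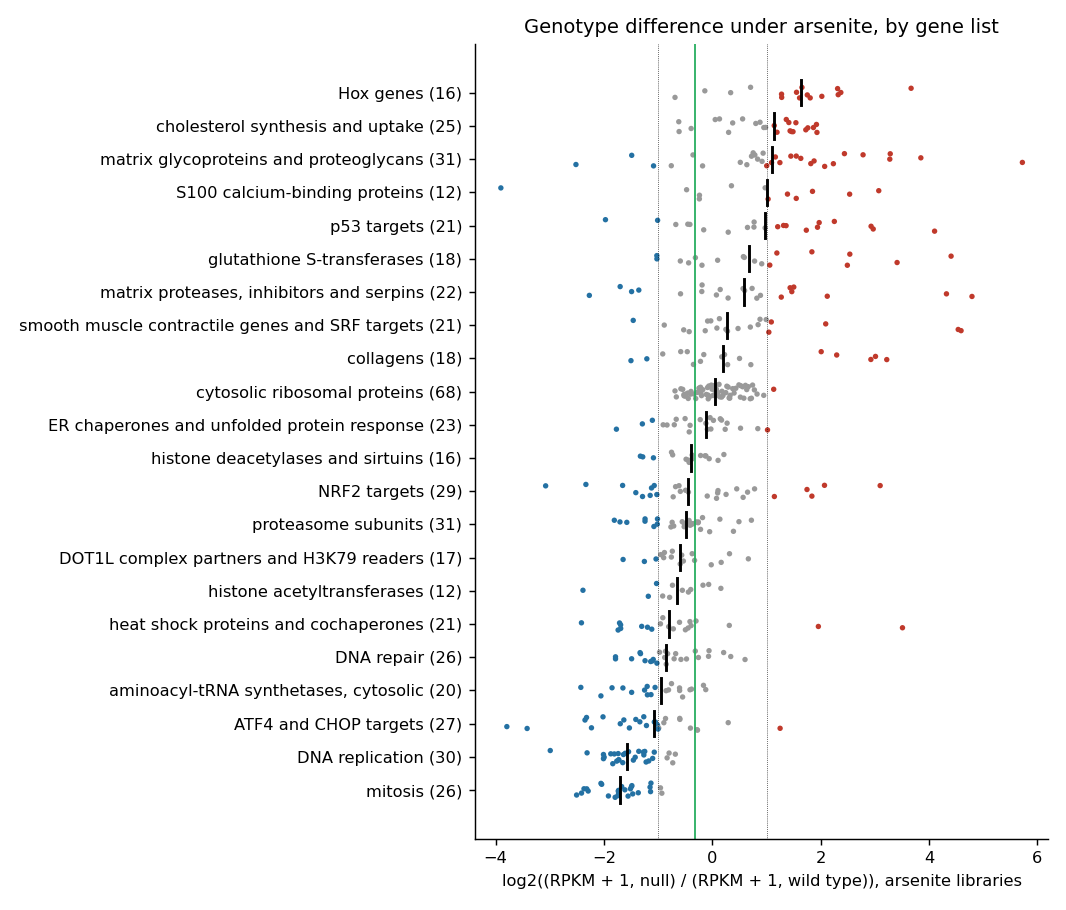
Difference with arsenite (x axis, log2 units, null over wild type) of each member past the filter for 22 gene lists, with the number of members in brackets; black bars are list medians, the green line the median of all genes at −0.33, and the dotted lines 2-fold. Hox and cholesterol genes lie farthest to the right by their medians among the lists drawn, and DNA replication and mitosis genes farthest to the left.

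Chromatin genes lay mostly below 0, close to where all genes lay. Of the DOT1L partners and readers of its mark 17 of 20 passed, Npm1, Eaf1 and Ccnt1 were lower and none higher (median −0.59, 0.26 below that of all genes), and 1 was lower after centring. Npm1, nucleophosmin, had 436, 677, 345 and 109. The partner genes Mllt3 (AF9, 3.44 and 2.43 with arsenite), Mllt1 (ENL, 21.9 and 24.7) and Mllt10 (AF10, 1.48 and 0.4703) were within 2-fold on the log2(RPKM + 1) scale. Of the acetyltransferases 12 of 16 passed, and Hat1, Kat2a and Kat7 were lower, or 1 gene after centring. Hat1, which acetylates newly made histone H4, had 18.8, 6.48, 34.5 and 5.78. Ep300, which encodes p300, had 23.1, 24.2, 1.29 and 0.558 and Crebbp, its paralog, 4.35, 18.1, 1.09 and 0.998. With arsenite these 2 rested on 122 and 58 reads and on 89 and 89 reads in wild type and null. Ep300 was 2.31-fold lower (1.67 to 3.21) in the null, while the ratio of Crebbp, null over wild type, was 0.912 (0.672 to 1.24), which holds equal levels. The deacetylase and sirtuin list had Hdac1 (27.4 and 10.3), Sirt3 and Sirt5 lower of 16, and the methyltransferases other than Dot1l 7 lower of 24, led by Ezh2 (9.35 and 1.94), the H3K27 methyltransferase. After centring none of the deacetylases and 3 of the methyltransferases were lower. Of 14 demethylases 1, Kdm5b (1.25 and 3.797), was higher, and 3 were after centring.

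The difference varied with gene length, which bears on short and abundant RNAs. Genes of 200 to under 500 bases had a median of 0.55 and 36.4% of them were higher, whereas genes of 2000 to under 4000 bases had a median of −0.38 and 8.67%. The slope over 10597 genes of at least 200 bases was −0.08 per doubling of length, against −0.04 untreated. S100 genes, which encode small calcium-binding proteins and whose 12 members past the filter had a median length of 714 bases, were higher in 6 cases and lower in 1 (median 1.00, 1.33 above that of all genes). With the length trend removed 5 were higher and 1 lower. S100a16 had 2.45, 7.76, 8.39 and 77.9 and S100a10 88.4, 161, 573 and 2064. Both were higher in the null with arsenite than in any other library. S100a7a was the lower member, at 4.84, 3.21, 29.3 and 1.02.

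Of 68 cytosolic ribosomal protein genes 1 was higher and none lower, with a median of 0.05 that turned to −0.04 with equal RPKM sums, and 7 were higher after centring. Among 49 nuclear respiratory chain genes Ndufs1, Sdhb, Uqcrc2 and Ndufb8 were lower and none higher, with a median of −0.18 that lay above 0 after centring, when 2 were higher and none lower. Of 31 proteasome genes 8 were lower and none higher, or 3 and 1 after centring, led by Psma1 (82.2 and 22.7) and Psmc6 (80.6 and 24.005). Of 12 mitochondrially encoded genes past the filter 4 were lower, mt-Co1, mt-Nd1, mt-Atp6 and mt-Rnr1, and after centring 1. The lowest was mt-Co1, at 3737, 2693, 2287 and 521, and mt-Nd5 was higher, at 739, 660.4, 2613 and 5318. Neighbouring mitochondrial transcripts share precursors, so their opposite sides are uncertain. Of 8 RNAs without a poly(A) tail Vaultrc5 and Rny3 were higher and Rpph1 lower, the last no longer so after centring. With a minimum of 20 reads 5 of the 8 remained, 1 of them higher and 1 lower. The list median of 0.36 then became −0.13. Rn7sk stood at 186 and 169.6 and Rmrp at 44.3 and 40.4.

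By position in the genome, medians ran from −0.55 on chromosome 4 to 0.06 on chromosome 16. On chromosome 16, 15.1% of 305 genes were higher and 10.8% lower, and its median was the highest in the untreated pair too, at 0.29. Chromosomes 2, 13, 14 and 15 had medians of −0.50, −0.50, −0.52 and −0.52.

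**Figure D5:**
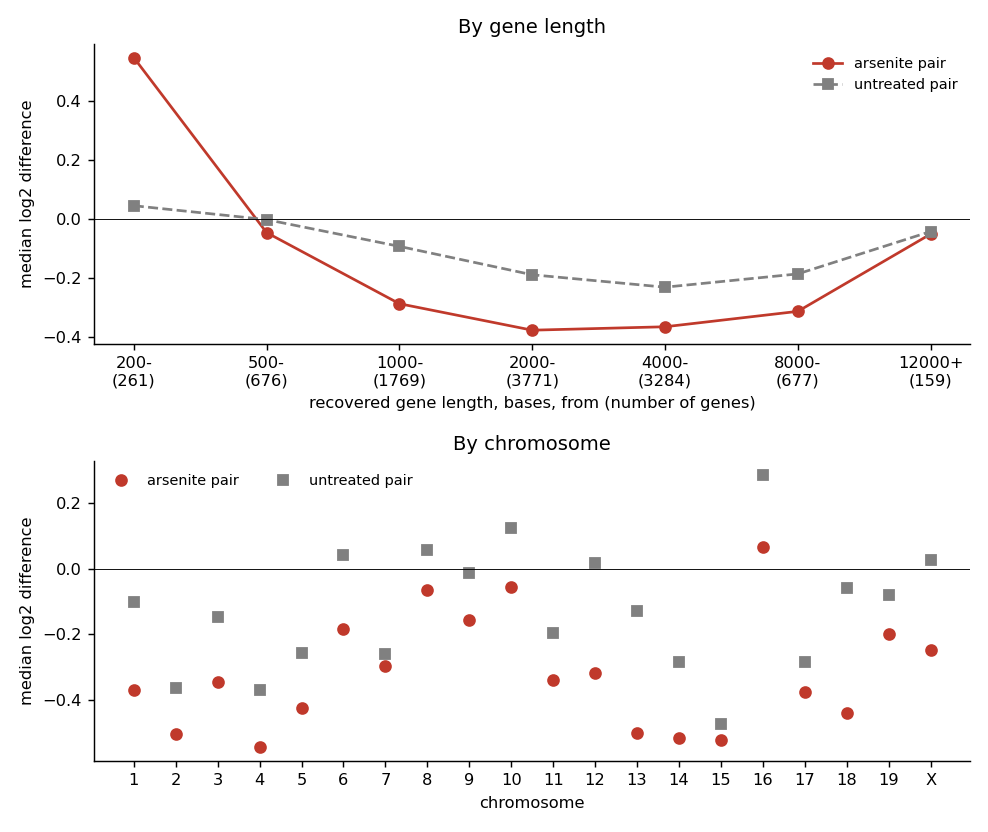
Median log2 difference, null over wild type, of genes grouped by recovered length (upper panel, number of genes in brackets) and by chromosome (lower panel), for the arsenite pair in red and the untreated pair in grey. The shortest genes have the highest median in the arsenite pair, 0.55, and chromosome 16 has the highest median of all chromosomes in both pairs.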

How the data were processed

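RNA was sequenced in 4 libraries, 1 per group; 2 H3K27ac ChIP-seq libraries were not analysed here. Stranded paired-end libraries (dUTP method) followed depletion of ribosomal RNA per the labels' protocols, whereas the molecule label reads polyA RNA; which applied is not settled. The submitters' processing notes name TopHat, HTSeq, Bowtie and deepTools and the build mm10, without versions or roles; for annotation and strand setting the sources used here give nothing, so reads of overlapping and antisense genes may be mixed. The authors deposited RPKM values, already scaled to length and depth, for 37224 Ensembl IDs, of which 35449 had a symbol and 29835 a position in RefSeq's GRCm38 annotation.

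No further scaling was applied. RPKM values are whole multiples of the value of 1 read (relative tolerance 1e-12), which gave depth, and a length for all 21617 genes above 0; of 530 small RNA genes, 362 had a length equal to their annotated span and 404 that span or that span divided by a whole number. Because the true length may be a multiple of the one recovered, genes under 200 bases were left out of calculations on length. Recovered reads served for exact conditional (Clopper-Pearson) 95% intervals, checked on simulated reads, and for a floor of 3 reads where a library had 0. No count model and no test was run. Python 3.11.15, pandas 2.3.3, numpy 2.4.6, SciPy 1.17.1, statsmodels 0.14.6 and matplotlib 3.10.9 were used.

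The members and the 42 pathway and 9 marker lists were chosen with earlier results of these data known. The genes named are the 15 highest and 15 lowest with a symbol (predicted genes, pseudogenes and small RNAs left out by symbol prefix, which left mitochondrial tRNAs in), the 5 most abundant per arsenite library, up to 5 per list, the 5 each way that were past 2-fold in both pairs, in opposite ways, or with arsenite alone (alike untreated within 0.2, at least 20 RPKM), and always Cdkn1a, Cdkn2a, Hmox1, Mt1, Mt2, Dot1l, Crebbp and Ep300. Settings varied were the filter, the pseudocount of 1, the scaling, the length trend (lowess span 0.3) and, added after seeing the data, a minimum of 20 reads. Further list members named for their function, or as the smallest differences of a list, were chosen after their values were seen. Some genes that this rule selects are not reported here.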

Additional observations from a re-analysis of the deposited data

Results flagged for a closer look

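A cholesterol group and 12 of the single genes picked for naming were past 2-fold in one direction with arsenite and in the other without it. Over all genes past both filters, 26 were higher with arsenite and lower without, and 25 the reverse. In each case 1 library stands for each group, and the difference between the pairs was not tested.

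Higher in the null with arsenite and lower without it was the median of the cholesterol list, at 1.14 and −1.39. Its members Fdps (1.92 with arsenite, −2.11 without), Mvd (1.54 and −2.12), Pmvk (1.49 and −1.55) and Hmgcs1 (1.76 and −1.07) did the same, as did Elovl6, a fatty acid elongase, at 1.39 and −1.36. Izumo4, of a sperm protein family, had 2.05 and −1.83, from RPKM values of 3.94 and 19.5 in wild type and null with arsenite and 8.14 and 1.57 without.

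Lower with arsenite and higher without were Cox6a2, the muscle form of a cytochrome c oxidase subunit (−3.10 and 2.27), Got1, the cytosolic aspartate aminotransferase (−1.54 and 1.45), Id2, an inhibitor of helix-loop-helix factors (−1.71 and 1.35), Aldh1l2, a mitochondrial folate enzyme (−1.30 and 1.83), Car6, a secreted carbonic anhydrase (−1.26 and 2.66), and Gsto1 (−1.02 and 1.07). Cox6a2 stood at 3.02, 18.4, 35.1 and 3.198 RPKM in the wild-type control, null control, wild type with arsenite and null with arsenite, Got1 at 39.5, 109.5, 22.3 and 7.03 and Id2 at 17.9, 47.03, 32.1 and 9.15.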

How the results depend on the processing

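Values were recomputed under 11 other settings, of which requiring at least 20 recovered reads was added after seeing the data. Recomputed list medians lay within 1.5-fold of the reported one in 491 cases and farther in 15; 1 of these, of a list past 2-fold, changed sign. Counting lists near 0 too, 13 of 46 lists changed sign under at least 1 setting. Centring shifts every list median by the same 0.33 log2 units, which is below the 1.5-fold limit, so it could not be counted as farther. Of single genes 2196 values stayed within the counting interval and 745 moved, and none past 2-fold changed sign. The filters leave the value of a gene as it is and so always count as within the interval. A pseudocount cannot change a sign, and centring shifts every gene by 0.33. These settings could not reverse a gene past 2-fold, so the lack of sign changes says little.

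The median of all genes, −0.33, was −0.14 with no filter, −0.18 with a pseudocount of 5, 0 after centring, −0.14 with 75th percentile scaling and −0.011 with the length trend removed. The 1102 higher genes became 707 at an RPKM of at least 5, 478 with a pseudocount of 5 and 1671 after centring. The 2130 lower became 754 with a pseudocount of 5, 1098 after centring and 1050 with the length trend removed. Higher in both pairs (368) were 205 at an RPKM of at least 5 and 136 with a pseudocount of 5; lower in both (720) were 416, 204, 413 after centring and 401 with the length trend removed. Of all genes past 2-fold, 34.1% were higher, against 60.3% after centring, 46.7% with 75th percentile scaling and 58.9% with the length trend removed. The median of the imprinted list was 1.06 and −0.011 with no filter, where 16 genes enter. For these changes the cause was not tested, apart from the fewer genes that a stricter filter leaves.

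No paired analysis was possible because each group has 1 library. Both arsenite libraries are shallow, so that a gene near 1 RPKM rests on few reads.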

Other observations

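Inflammatory genes gave another pattern of this arsenite comparison. Of 20 chemokine genes 16 passed the filter, with 7 higher and 2, Ccl20 and Cxcl15, lower in the null with arsenite (median 0.51, 0.84 above that of all genes), whereas 9 of the same 16 were lower and 3 higher without it (median −1.23). Cxcl1, a chemokine that draws neutrophils, had RPKM values of 3.53, 49.4, 3.49 and 154 in the wild-type control, null control, wild type with arsenite and null with arsenite, and its relative Cxcl5 30.4, 96.02, 3.63 and 57.5. Both were higher in the null in both pairs. Ccl7, which draws monocytes, had 89.9, 14.5, 59.004 and 59.1: the null was the lowest library without arsenite, and the 2 arsenite libraries were equal. Ccl20, a chemokine of dendritic cells and lymphocytes, was lower in both pairs at 22.3, 1.71, 11.95 and 0.0592. NF-kB subunits, targets and cytokines had 1 higher and 1 lower of 19 with arsenite (26 listed; median −0.08), against 1 higher and 11 lower without (median −1.37). The higher gene was Il1rl1, the receptor of interleukin 33, at 7.43, 111, 1.53 and 38.5, and the lower Ptgs2, cyclooxygenase 2, at 130.1, 39.2, 28.1 and 8.53. After centring 4 were higher and 1 lower, and the list median lay above 0.

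Of 18 interferon response genes past the filter (32 listed) H2-K1, Tap1, Psmb8, Bst2 and Ifi27 were higher and Ifit2 and B2m lower (6 and 1 after centring). The antigen presentation genes H2-K1 (1.95 and 23.4 in wild type and null with arsenite), Tap1 (0.2696 and 4.92) and Psmb8 (0.337 and 4.25) were below 2 RPKM in wild type, while B2m, the light chain of the same class I complex, was lower at 1133 and 526. Immediate early genes split as well, with Egr1, Ier2 and Jund higher and Myc, Nr4a1, Ier3 and Dusp1 lower of 16 (5 and 2 after centring). Egr1 stood at 21.5, 12.8, 2.697 and 21.3 in the 4 libraries and Ier2 at 41.6, 43.5, 14.3 and 62.6, both above wild type in the null with arsenite, whereas Myc had 128, 149.7, 22.97 and 6.66 and was lower there alone. Of 26 glycolysis and hypoxia genes 4 were higher, namely Egln3 (0.659 and 4.52 with arsenite), P4ha1 (22.4 and 69.2), Pfkl (38.5 and 89.1) and Ankrd37 (1.78 and 5.04), and Pfkp was lower (3.76 and 0.708). After centring 4 were higher and 1 lower. Lysosome and autophagy genes past the filter numbered 28, of which 3 were higher, Ctsz and Gabarap (319.7 and 656) among them, and none lower. That share of higher genes is close to the 10.1% over all genes. After centring 4 were higher and none lower. Within the BCL2 family 11 of 16 genes passed the filter. The antiapoptotic Bcl2l1 (15.5 and 37.1) and Mcl1 (31.9 and 70.3) and the proapoptotic Bax were higher, and Bok (19.7 and 5.76) lower. After centring 3 were higher and 1 lower. Replication-dependent histone genes, whose RNAs lack a poly(A) tail, had a median of 0.47 with Hist1h2bj and Hist1h2bl higher and Hist1h2bc and H2afx lower of 19. Hist1h2bj rested on 3 and 22 reads and Hist1h2bl on 0 and 6; with a minimum of 20 reads 1 of 11 genes was higher, 2 were lower and the median was −0.47.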
